A study of Mus musculus with 16 samples.

Results

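Lungs of Vldlr knockout mice given house dust mite extract (HDM) were compared with lungs of Vldlr knockout mice given saline, across all measured genes. The comparison took the 4 arrays labelled Vldlr knockout HDM and the 4 labelled Vldlr knockout saline, 8 of the 16 arrays of the series. The other 8 arrays are wild-type lungs under the same treatments, 4 each, and were used for the spread between arrays and to test where the response differed between genotypes. Vldlr-/- mice lack the very low density lipoprotein receptor, and the wild-type mice were of the B6129SF2/J strain. A strain for the knockout arrays, and the age and sex of the mice, were not given in the sources used here. HDM was given through the nose at 25 µg in 10 µl on 5 days of every week over 6 weeks, and the controls received the same volume of saline. Total RNA of whole lung, 50 ng a sample, was labelled and hybridised to whole-transcript arrays. Levels are log2 intensities, so a difference of 1 is a 2-fold change, and levels of different genes cannot be set against each other. The labels call the arrays of a group biological replicates without saying how many animals gave each RNA, so every p-value measures the spread between these samples. Of all probe sets, those with 1 gene symbol gave 19938 genes, each represented by its brightest probe set.

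Inhaled HDM is a mixed allergen with proteases and microbial products that is used in mice to produce features of asthma. In such models type 2 lymphocytes release interleukins 4, 5 and 13, which act through STAT6 and other factors on epithelium and macrophages, recruit eosinophils and mast cells, and turn airway secretory cells into mucus-producing cells. The very low density lipoprotein receptor is a member of the LDL receptor family that binds apolipoprotein E and other ligands, and it is found on endothelium, muscle and macrophages, among other cells. The question set by the design is how the lung without this receptor responds to HDM.

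The Vldlr level was 9.40 to 9.91 on the 8 knockout arrays (9.73 ± 0.18, SD) and 10.27 to 10.92 on the 8 wild-type arrays (10.58 ± 0.19, SD), which did not overlap, so the arrays followed their genotype labels. The sources used here do not say which exons the probe set covers or which are deleted. Within the knockout, Vldlr differed between HDM and saline by -0.21 ± 0.12 (SE), adjusted p = 0.299, which did not pass the test. Pairs of arrays within a knockout group correlated at 0.9906 to 0.9972 over genes, and pairs across the groups at 0.9831 to 0.9911. Knockout HDM array 4 stood apart. Over the genes called higher whose groups did not overlap, it was the HDM array nearest to saline for 527 of 846 (62.3%), and over those called lower for 332 of 695 (47.8%). Its median shift from the saline mean over the 989 genes called higher was 0.264, against 0.395, 0.418 and 0.477 on the other HDM arrays. In wild type, saline arrays 2 and 3 stood apart in some genes, with Rnase2a at 11.47 and 11.22 where saline arrays 1 and 4 had 8.54 and 9.68. Over all genes they did not spread more than the others. Weights estimated for each array, higher for a smaller spread around the group mean, were 1.518 and 1.852 for arrays 2 and 3. They were 1.164 and 1.081 for saline arrays 1 and 4. The labels of arrays 2 and 3 were kept, and what set these arrays apart was not tested. Over the 97 genes that rose at least 2-fold in the knockout, wild-type saline arrays 2 and 3 lay 0.33 and 0.18 above the knockout saline mean (median over genes), where no knockout saline array was more than 0.08 above it. Those wild-type arrays enter no change reported for the knockout, other than through the pooled spread.

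HDM changed 1763 genes in the knockout lung at an adjusted p under 0.05 (limma, Benjamini-Hochberg over all genes), which is 8.84% of those tested. 989 were higher (4.96%) and 774 lower (3.88%). Every list count below is to be read against these shares over all genes. The 4 HDM and 4 saline arrays did not overlap for 1541 of these genes (7.73% of all tested). Over all 19938 genes, called or not, the groups did not overlap for 2799. Separation and a call come from the same values, so the 1541 are no added evidence. Rises reached much further than falls. 97 genes rose at least 2-fold (0.487%) and 24 fell at least 2-fold (0.120%), 21 rose at least 4-fold and none fell that far, and 5 rose at least 16-fold. The median size of a called change was modest, 0.38 for rises and -0.35 for falls, and the median over all genes was -0.03. The count moved by over 1.5 times when certain arrays were left out. It was 2673 without knockout HDM array 4, 1158 without HDM array 1, 1034 without HDM array 3 and 1055 without saline array 2, and weights for each array gave 2938. Of the 183 knockout calls named here, 34 ended when 1 of the 8 knockout arrays was left out, and 149 held without any 1 of them. The arrays concerned, always left out 1 at a time, are given beside these genes, and beside each list whose count moved by over 1.5 times.

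**Figure D1:**
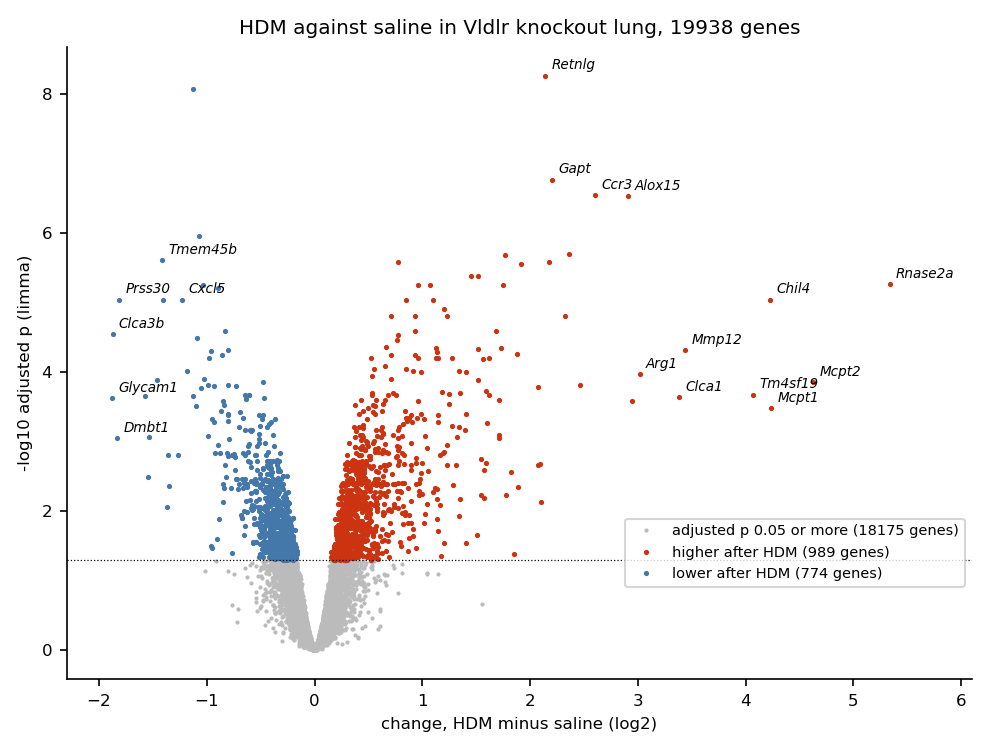
Each point is 1 of 19938 genes, with the change between HDM and saline in Vldlr knockout lung (log2, HDM minus saline, 4 arrays each) on the x axis and -log10 of limma's adjusted p on the y axis. The dotted line marks 0.05. The largest rise was that of Rnase2a at 5.33 and the largest fall that of Glycam1 at -1.88.

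The 15 largest rises were taken among genes with non-overlapping groups, leaving out predicted genes, small RNAs and receptor segments. They comprised genes listed here for eosinophils and their attraction (Rnase2a, Ccl24, Ccl11, Ccr3, Alox15) and mast cell proteases (Mcpt1, Mcpt2). The others were products of macrophages and epithelium (Chil4, Clca1, Arg1, Mmp12) and a group of cell surface genes (Tm4sf19, Cd209e, Gapt, Corin). All 15 ranged from 2.18 to 5.33 on the log2 scale. Knockout HDM array 4 was the lowest HDM array for 12 of the 15, and all 15 passed without it. The 15 largest falls ranged from 1.23 to 1.88 in size and also passed without array 4, which was nearest to saline for 5 of them. The heat map of these 30 genes shows the knockout arrays beside the wild-type arrays.

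**Figure D2:**
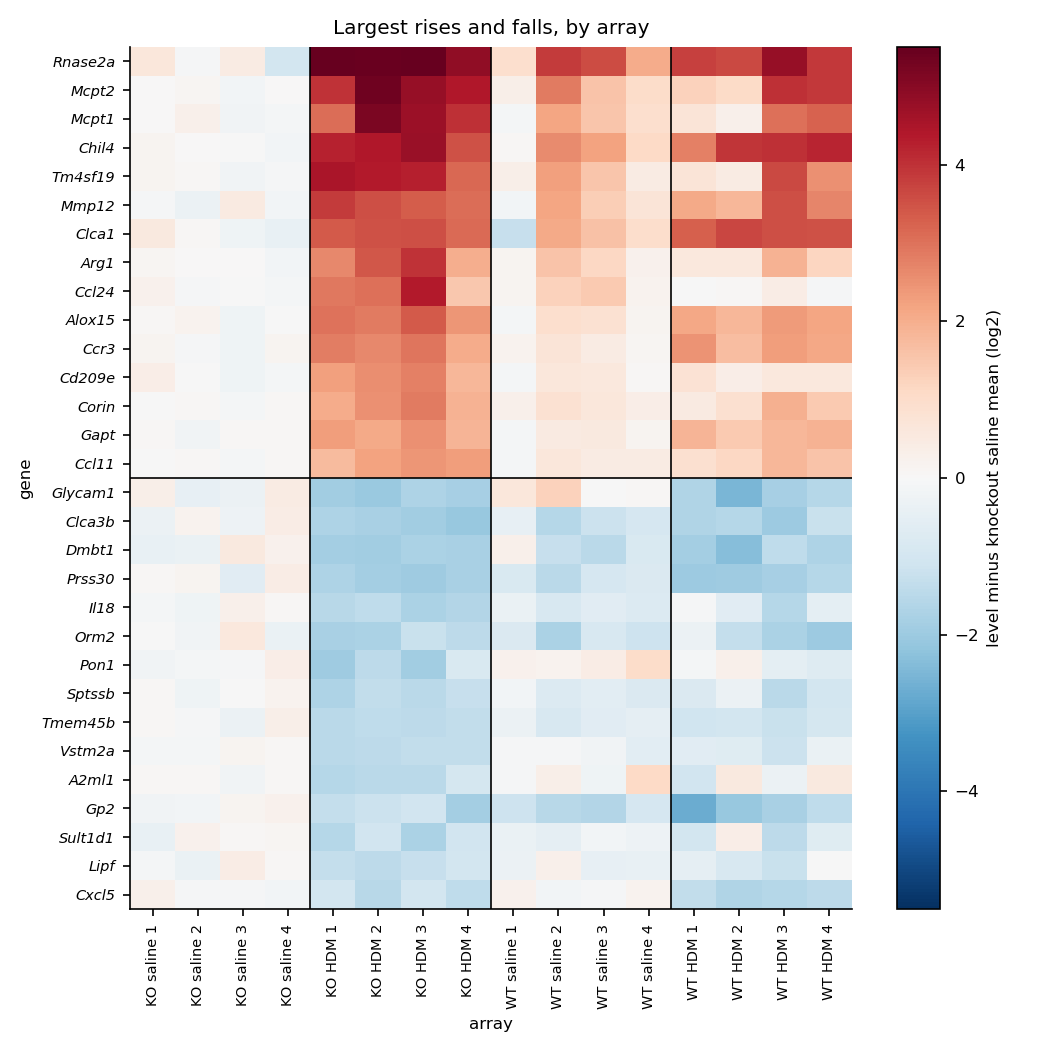
Rows are the 15 largest rises and 15 largest falls of the knockout comparison, columns the 16 arrays, and colour the level minus the mean of the 4 knockout saline arrays (log2). The knockout saline arrays are close to 0, the knockout HDM arrays are coloured in every row, and wild-type saline arrays 2 and 3 lie above the knockout saline mean for the upper rows, as for Rnase2a at 11.47 and 11.22.

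Genes listed for eosinophils and for their attraction were among the strongest rises. Of 8 measured genes for eosinophil attraction 4 rose and none fell (median change 0.86), and of 12 eosinophil genes 9 rose and none fell (median 1.01), against 4.96% of all genes higher. With 1 knockout array left out at a time the counts were 4 to 5 and 9 to 10. Rnase2a, an eosinophil-associated ribonuclease, read 8.26, 7.55, 8.09 and 6.63 on the saline arrays and 13.10, 13.07, 13.19 and 12.52 on the HDM arrays. The groups were far apart, and the change was 5.33 ± 0.49 (SE), adjusted p = 5.4e-06, or 40.4-fold. Rnase2b, its relative, went from a range of 6.87 to 7.05 on saline arrays to one of 7.74 to 8.67 on HDM arrays (1.18 ± 0.16 (SE), adjusted p = 0.000194), and Ear6 of the same family changed by 1.41 ± 0.21. The copies of this family are alike in sequence, and how far their probe sets share signal was not tested. Ccr3, the eotaxin receptor, was at 8.15, 7.92, 7.77 and 8.13 after saline and 10.80, 10.64, 10.92 and 10.01 after HDM, with no overlap and the lowest HDM value on array 4 (2.60 ± 0.18 (SE), adjusted p = 2.85e-07). In whole lung, more cells of a type and more RNA per cell cannot be told apart. Which cells made the RNA of Rnase2a or of another listed gene was not tested.

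The eotaxins Ccl11 and Ccl24, which are ligands of Ccr3, rose as well. Ccl11, eotaxin-1, read 8.94, 9.04, 8.86 and 9.05 after saline and 10.72, 11.19, 11.42 and 11.27 after HDM (2.18 ± 0.19 (SE), adjusted p = 2.58e-06), and its HDM array 4 was the second highest of its group. Ccl24, eotaxin-2, which macrophages make, read 8.06, 7.74, 7.78 and 7.69 after saline and 10.70, 10.85, 12.18 and 9.30 after HDM. The HDM arrays spread widely, with array 3 highest and array 4 lowest, and still did not overlap with saline (2.94 ± 0.41 (SE), adjusted p = 0.000261). Without array 4 its change was 3.43. Other eosinophil genes that rose were Alox15, the arachidonate 15-lipoxygenase (2.91 ± 0.21 (SE), adjusted p = 2.92e-07), Il5ra, the interleukin 5 receptor chain (1.71 ± 0.24 (SE), adjusted p = 0.000249), the transcription factor Cebpe (0.69 ± 0.09) and the granule protein gene Prg2 (0.56 ± 0.12). Epx and Prg3, which are granule protein genes like Prg2, had changes of 0.03 (adjusted p = 0.811) and 0.02 (adjusted p = 0.882). Siglecf, which marks eosinophils and alveolar macrophages, had 0.25 (adjusted p = 0.187).

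**Figure D3:**
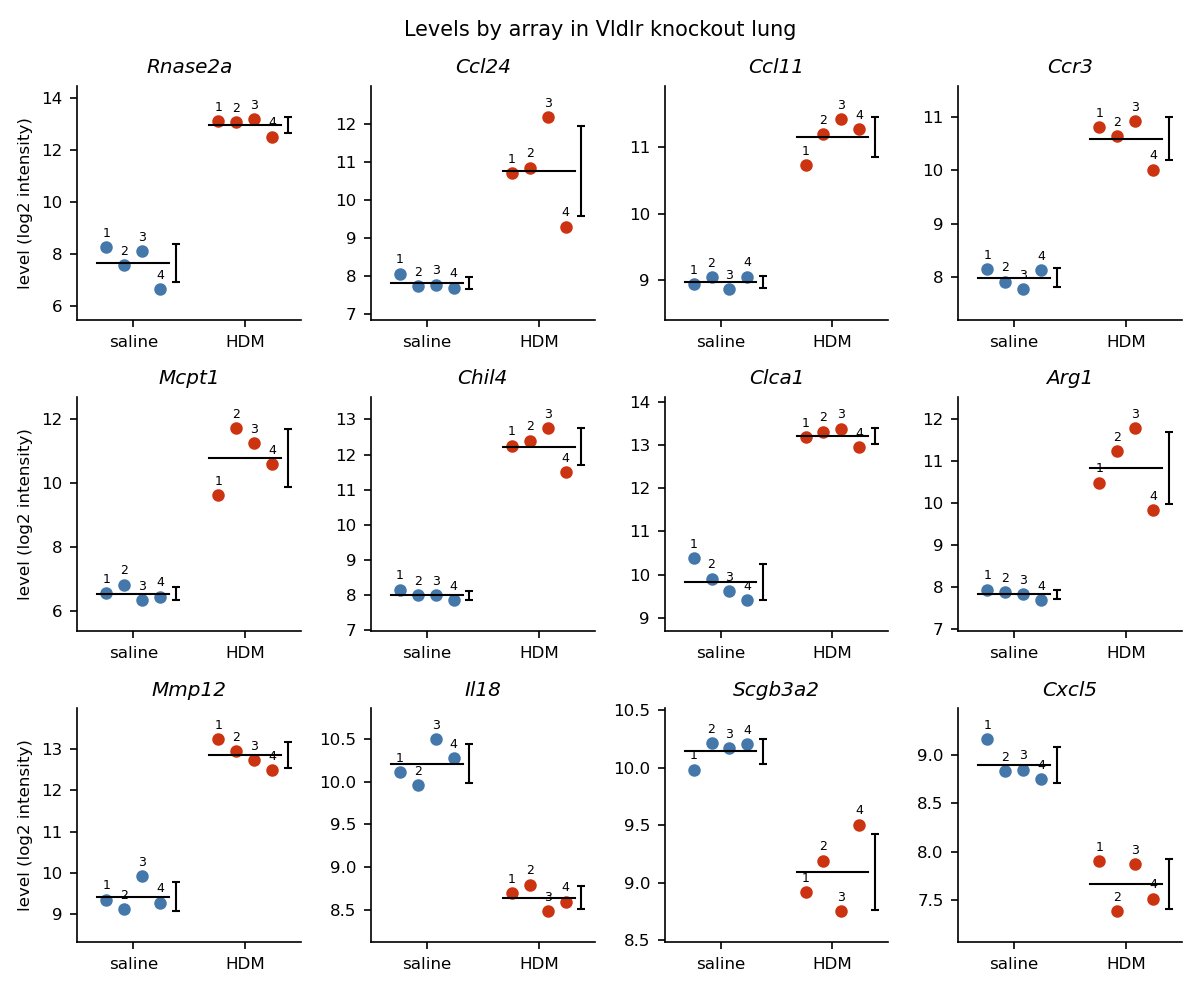
Levels (log2 intensity) of 12 genes on the 4 saline and 4 HDM arrays of Vldlr knockout lung, with the replicate number above each point, the group mean as a line and the SD as a bar. The groups do not overlap in any panel. Array 4 is the lowest HDM array for Ccl24 at 9.30 and for Arg1 at 9.83, and the highest for Scgb3a2 at 9.51.

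Chemokines that attract other type 2 cells rose too. Of 6 genes of the Ccr4 and Ccr8 axes 4 rose and none fell (median 0.98). Ccl8, a Ccr8 ligand in the mouse, read 8.55, 8.18, 8.33 and 8.25 after saline and 9.76, 10.59, 10.07 and 9.20 after HDM (1.58 ± 0.29 (SE), adjusted p = 0.00251), and Ccr8 itself went from a saline range of 7.56 to 7.83 to an HDM range of 8.40 to 9.08 (0.98 ± 0.12 (SE), adjusted p = 9.89e-05). The HDM and saline arrays were separate for both genes. The Ccr4 ligands Ccl17 (0.98 ± 0.18 (SE), adjusted p = 0.00282) and Ccl22 (0.998 ± 0.18 (SE), adjusted p = 0.00205) rose by about the same amount, while Ccr4 had 0.17 (adjusted p = 0.454). Among 11 inflammatory CC chemokine genes 5 rose and 1 fell, and the number that rose was 8 without HDM array 4. Ccl9 rose by 1.68 ± 0.18 and Ccl3, a macrophage product, by 1.89 ± 0.38. Ccl2, the main monocyte attractant, had 0.53 (adjusted p = 0.0552) and Ccl4 had -0.03 (adjusted p = 0.83). Cx3cr1, the fractalkine receptor of patrolling monocytes, fell by 0.28 ± 0.07 (adjusted p = 0.0171). Its call ended without saline arrays 1 or 4 or HDM array 2 (adjusted p 0.0512 to 0.0595).

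Of 16 genes of type 2 and alarm cytokines, their receptors and factors, 8 rose and none fell (median 0.33), and 6 to 10 rose with 1 knockout array left out at a time. Il4 read 8.09, 8.19, 8.09 and 7.98 after saline and 8.68, 8.51, 8.61 and 8.35 after HDM (0.45 ± 0.09 (SE), adjusted p = 0.00294). Il5, the eosinophil growth factor, read 6.98, 7.18, 6.56 and 6.80 after saline and 7.23, 7.34, 7.54 and 7.38 after HDM (0.49 ± 0.12 (SE), adjusted p = 0.0157), and the groups lay next to each other without overlap. The call of Il5 ended without saline array 3 or HDM array 3 (adjusted p 0.0507 to 0.0598). Il13 had 0.26 (adjusted p = 0.0637). Il33, an alarm cytokine of epithelium, went from a saline range of 11.75 to 11.96 to an HDM range of 12.10 to 12.74 (0.63 ± 0.12 (SE), adjusted p = 0.00381), whereas Tslp had -0.08 (adjusted p = 0.703) and Il25 -0.19 (adjusted p = 0.0991). Some receptor genes, though not all, changed more than these cytokine genes. The decoy receptor for interleukin 13, Il13ra2, read 5.90, 5.84, 5.83 and 5.73 after saline and 6.49, 7.34, 7.71 and 6.43 after HDM, with arrays 2 and 3 well above 1 and 4 (1.17 ± 0.20 (SE), adjusted p = 0.00157). Il17rb, the receptor of interleukin 25, rose by 0.78 ± 0.09 (adjusted p = 2.88e-05) and Gata3, the type 2 transcription factor, by 0.40 ± 0.09. Il4ra had 0.26 (adjusted p = 0.069) and Stat6 0.09 (adjusted p = 0.403).

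Within the interleukin 1 and 18 pathway the members moved in opposite directions, 2 up and 4 down of 10. The number that rose was 1 without saline arrays 1, 2 or 4 or HDM arrays 1, 2 or 3 and 4 without HDM array 4. Il1rn, the receptor antagonist, went from a saline range of 9.82 to 10.12 to an HDM range of 10.81 to 12.14 (1.54 ± 0.27 (SE), adjusted p = 0.00177) and Il1a rose by 0.88 ± 0.23. The call of Il1a ended without saline arrays 1, 2 or 4 or HDM arrays 1, 2 or 3 and with a variance trend and robust estimation (adjusted p 0.0541 to 0.0793). Il18 read 10.11, 9.96, 10.50 and 10.27 after saline and 8.69, 8.79, 8.48 and 8.60 after HDM, a fall of 1.57 ± 0.21 (adjusted p = 0.000222), and all HDM arrays lay more than 1 log2 unit below all saline arrays. Il1b fell by 0.48 ± 0.13 (adjusted p = 0.0305), a call that ended without saline arrays 1, 2 or 3 or HDM arrays 1 or 4 (adjusted p 0.0528 to 0.0915). Nlrp3, a sensor that activates the processing of both cytokines, fell by 0.31 ± 0.07, and Il18r1 by 0.29 ± 0.06.

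The largest rises after Rnase2a were those of mucosal mast cell proteases. Mcpt1 read 6.56, 6.83, 6.34 and 6.45 after saline and 9.62, 11.71, 11.24 and 10.58 after HDM (4.24 ± 0.61 (SE), adjusted p = 0.000327), and Mcpt2 read 6.32, 6.36, 6.14 and 6.28 after saline and 10.24, 11.60, 11.07 and 10.70 after HDM (4.63 ± 0.60 (SE), adjusted p = 0.000139), or 24.7-fold. HDM array 1 was the lowest and array 2 the highest for both, so the order of the HDM arrays differed from that of Rnase2a and Ccr3, where array 4 was lowest. Of 14 mast cell and basophil genes 6 rose and none fell, with a median of 0.26, and with 1 knockout array left out at a time 3 to 6 rose, the lowest without HDM array 2. Cpa3, the mast cell carboxypeptidase, read 7.58, 7.54, 7.38 and 7.88 after saline and 8.78, 9.93, 9.24 and 8.78 after HDM (1.59 ± 0.28 (SE), adjusted p = 0.00205), again highest on array 2. Hdc, which makes histamine, rose by 0.46 ± 0.11, Tpsb2, a tryptase, by 0.38 ± 0.10 and Fcer1a, a chain of the IgE receptor, by 0.33 ± 0.09. The call of Hdc ended without saline array 2 or HDM arrays 2 or 3 (adjusted p 0.0568 to 0.0685), that of Tpsb2 without saline arrays 3 or 4 or HDM array 2 (adjusted p 0.0565 to 0.0749) and that of Fcer1a without saline arrays 2, 3 or 4 or HDM arrays 1, 2 or 3 (adjusted p 0.0503 to 0.0725). The connective tissue mast cell genes Cma1 (-0.04, adjusted p = 0.768) and Mcpt4 (0.56, adjusted p = 0.0909) and the basophil protease Mcpt8 (-0.06, adjusted p = 0.823) did not pass, nor did Kit (-0.04, adjusted p = 0.808).

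Lipid mediator genes followed, with 9 of 20 up and 3 down. Besides Alox15, these were Tbxas1, the thromboxane synthase (0.75 ± 0.13), Ptgir, the prostacyclin receptor (0.72 ± 0.14), Cysltr1, a leukotriene receptor (0.65 ± 0.12), Alox5 (0.64 ± 0.12) and Ptges (0.56 ± 0.11). Ptgs2, an inducible cyclooxygenase, fell from a saline range of 10.75 to 11.000 to an HDM range of 10.23 to 10.53 (-0.52 ± 0.11 (SE), adjusted p = 0.00668), and Hpgd, which breaks down prostaglandins, from a saline range of 13.44 to 13.61 to an HDM range of 12.78 to 13.25 (-0.60 ± 0.09 (SE), adjusted p = 0.00069).

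Chitinase-like and resistin-like proteins, secreted by macrophages and epithelium in type 2 inflammation, had the highest median of all 45 lists, 1.28, and 6 of 9 rose. Chil4 read 8.15, 7.998, 7.99 and 7.85 after saline and 12.25, 12.40, 12.75 and 11.49 after HDM (4.22 ± 0.42 (SE), adjusted p = 9.09e-06), 18.7-fold. Its relative Chil3 went from a saline range of 11.39 to 11.72 to an HDM range of 12.79 to 13.20 (1.35 ± 0.18 (SE), adjusted p = 0.000197), and Chia1, the acidic chitinase, from a saline range of 12.09 to 12.39 to an HDM range of 13.49 to 13.71 (1.28 ± 0.20 (SE), adjusted p = 0.000598). Retnla read 12.12, 11.73, 11.96 and 11.65 after saline and 13.01, 13.03, 13.13 and 13.57 after HDM (1.32 ± 0.21 (SE), adjusted p = 0.000852), and here HDM array 4 was the highest. Retnlg, its neighbour on chromosome 16, read 9.21, 8.98, 9.09 and 9.27 after saline and 11.32, 11.26, 11.30 and 11.23 after HDM (2.14 ± 0.11 (SE), adjusted p = 5.47e-09). Chil1 (0.11, adjusted p = 0.685) and Retn (-0.22, adjusted p = 0.421) did not pass.

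STAT6, the factor that carries interleukin 4 and 13 signals, binds a pair of half-sites, TTC and GAA, with 4 bases between them, and this pair reads alike on both strands. The 250 bases upstream of each gene start in RefSeq (GRCm38.p6) were searched for it. It occurred in 1923 of 32851 windows of all genes (5.85%) and in 1028 of 19177 windows of all tested genes (5.36%). Of genes called higher 72 of 1020 windows held it (7.06%), and of genes called lower 42 of 772 (5.44%). Of the 15 largest rises, 9 had an entry, with 10 windows, and only the one of Cd209e held the pair (10.00%), and of the 15 largest falls 1 of 12 windows did, that of Il18. The windows of Chil4, Ccl8 and Rnase2a held none. Mcpt2, Clca1, Arg1, Ccl24, Alox15 and Ccl11 were among those without an entry. The 160 bases before the start are printed for 4 genes that rose and hold the pair, and for Il18, which fell, so that it can be seen that the same letters stand before genes of either direction. Capitals mark the pair and the bases between. The genes are Retnla (chr16:48842449-48842608, plus strand, pair beginning 145 bases before the start), Retnlg (chr16:48872448-48872607, plus strand, 72 bases), Cd209e (chr8:3854287-3854446, minus strand, 79 bases), Ccl17 (chr8:94810293-94810452, plus strand, 154 bases) and Il18 (chr9:50554540-50554699, plus strand, 46 bases). A match is a description of these letters, not a sign of binding.
Retnla: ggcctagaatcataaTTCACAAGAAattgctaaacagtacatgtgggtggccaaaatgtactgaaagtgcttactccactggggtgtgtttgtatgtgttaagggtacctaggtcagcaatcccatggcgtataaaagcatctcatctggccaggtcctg
Retnlg: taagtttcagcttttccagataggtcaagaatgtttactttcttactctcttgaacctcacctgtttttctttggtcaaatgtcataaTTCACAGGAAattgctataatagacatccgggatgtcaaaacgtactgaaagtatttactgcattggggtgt
Cd209e: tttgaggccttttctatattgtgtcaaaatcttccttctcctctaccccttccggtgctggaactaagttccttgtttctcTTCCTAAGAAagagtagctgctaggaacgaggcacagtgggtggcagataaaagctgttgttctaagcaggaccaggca
Ccl17: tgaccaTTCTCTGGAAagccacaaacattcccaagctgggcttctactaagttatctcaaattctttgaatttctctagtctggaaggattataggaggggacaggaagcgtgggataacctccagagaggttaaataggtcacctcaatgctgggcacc
Il18: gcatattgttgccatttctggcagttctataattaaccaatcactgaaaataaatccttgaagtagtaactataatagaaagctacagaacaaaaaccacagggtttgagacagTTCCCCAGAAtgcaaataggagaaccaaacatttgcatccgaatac

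Genes of alternatively activated macrophages rose in 10 of 16 cases with none lower (median 0.63), and in 9 to 12 with 1 knockout array left out at a time. Arg1, which turns arginine into ornithine, read 7.93, 7.86, 7.82 and 7.67 after saline and 10.48, 11.24, 11.79 and 9.83 after HDM (3.02 ± 0.38 (SE), adjusted p = 0.000106), 8.10-fold, with array 3 highest and array 4 lowest. Igf1, a growth factor of macrophages, went from a saline range of 9.89 to 10.28 to an HDM range of 11.11 to 11.65 (1.41 ± 0.18 (SE), adjusted p = 9.89e-05), Clec7a, the beta-glucan receptor, from a saline range of 9.99 to 10.53 to an HDM range of 10.76 to 11.65 (1.15 ± 0.17 (SE), adjusted p = 0.000526), and Mgl2, a lectin of these cells, from a saline range of 9.69 to 10.15 to an HDM range of 10.62 to 10.78 (0.83 ± 0.14 (SE), adjusted p = 0.00157). None of these groups overlapped. The checkpoint ligand Pdcd1lg2 rose by 0.76 ± 0.16 and the scavenger receptor Cd163 by 0.72 ± 0.18, the latter on arrays 2 and 3 chiefly (8.86, 9.77, 9.69 and 8.77). The call of Cd163 ended without saline arrays 1 or 2 or HDM arrays 2 or 3 (adjusted p 0.0512 to 0.0798). Mrc1, a common marker of this state, had 0.18 (adjusted p = 0.654). Other genes of arginine metabolism rose beside Arg1. These were the arginine transporter Slc7a2 (0.78 ± 0.15), Nos2, which makes nitric oxide from arginine (0.64 ± 0.13), and the spermidine synthase Srm (0.42 ± 0.09). Arg2 had 0.29 (adjusted p = 0.223).

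A further group of macrophage genes, those of cell fusion and of osteoclasts, rose in 10 of 18 cases with 1 lower. The number that rose was 6 without saline array 2 or HDM arrays 1, 2 or 3, and 13 without HDM array 4. Dcstamp and Ocstamp, membrane proteins needed for the fusion of macrophages, read 11.18, 10.29, 10.64 and 9.74 and 10.36, 10.39, 10.54 and 9.54 on the HDM arrays, against 8.37 to 8.83 and 8.76 to 9.002 after saline. Their changes were 1.88 ± 0.22 (SE), adjusted p = 5.5e-05 for the first and 1.34 ± 0.17 (SE), adjusted p = 9.68e-05 for the second. Mmp12, the macrophage elastase, read 9.35, 9.11, 9.92 and 9.28 after saline and 13.24, 12.95, 12.73 and 12.49 after HDM (3.44 ± 0.40 (SE), adjusted p = 4.78e-05). Gpnmb (2.07 ± 0.37), the protease Ctsk (1.55 ± 0.32) and the proton pump subunit Atp6v0d2 (1.09 ± 0.23) rose more than 2-fold, while Cd9, a tetraspanin, fell by 0.31 ± 0.08, a call that ended without HDM arrays 2 or 3 (adjusted p 0.0538 to 0.0581). Tm4sf19, another tetraspanin-like membrane protein, read 8.75, 8.67, 8.40 and 8.53 after saline and 13.07, 12.94, 12.86 and 11.75 after HDM, and array 4 stood more than 1 unit below the other HDM arrays (4.07 ± 0.55 (SE), adjusted p = 0.00021). Gapt, a membrane protein of blood cells, changed by 2.20 ± 0.15 and Corin, a membrane protease, by 2.32 ± 0.24. Without array 4 the change of Tm4sf19 was 4.37. Of 19 proteases and inhibitors 8 rose and 1 fell. Timp1 read 8.97, 9.11, 8.98 and 8.94 after saline and 10.05, 11.49, 11.86 and 9.71 after HDM, a change carried most by arrays 2 and 3 (1.78 ± 0.37 (SE), adjusted p = 0.0059), Mmp13 changed by 2.10 ± 0.45 and Mmp19 by 1.71 ± 0.28.

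Genes typical of resident alveolar macrophages did not move together. Of 12 members 2 rose and 4 fell (median -0.14). Itgax, an integrin they share with dendritic cells, went from a saline range of 9.94 to 10.31 to an HDM range of 11.27 to 11.90 (1.61 ± 0.22 (SE), adjusted p = 0.00021), whereas Fabp1 fell from a saline range of 7.17 to 7.82 to an HDM range of 6.28 to 6.52 (-1.13 ± 0.15 (SE), adjusted p = 0.000218), Krt79 by 0.96 ± 0.11, Cidec by 0.74 ± 0.13 and Plet1 by 0.50 ± 0.13. The call of Plet1 ended without saline arrays 1 or 3 or HDM arrays 1 or 2 (adjusted p 0.0517 to 0.0583). Car4 (-0.12, adjusted p = 0.402), Marco (-0.25, adjusted p = 0.099) and Pparg (0.04, adjusted p = 0.862) did not pass. Of 13 genes of monocytes and interstitial macrophages 6 rose and 1 fell, and 4 to 8 rose with 1 knockout array left out at a time. The complement genes C1qa and C1qb rose by 0.67 ± 0.13 and 0.77 ± 0.16, and Ccr2, the receptor of recruited monocytes, by 0.58 ± 0.13.

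Of 21 dendritic cell genes 7 rose and none fell, and the number that rose was 11 without HDM array 4 and 5 to 6 without any 1 of the others. Cd209e, a C-type lectin, read 8.67, 8.30, 8.08 and 8.22 after saline and 10.58, 10.89, 11.11 and 10.13 after HDM (2.36 ± 0.19 (SE), adjusted p = 2.03e-06), and Cd209d rose by 1.73 ± 0.20. Markers of conventional dendritic cell lineages such as Zbtb46 (0.01, adjusted p = 0.972) and Xcr1 (0.36, adjusted p = 0.114) did not pass, and of 8 MHC class II genes 1 rose, the transactivator Ciita (0.38 ± 0.09), whose call ended without saline array 2 or HDM array 3 and with only the knockout arrays in the fit (adjusted p 0.0507 to 0.0562). Of 20 T cell genes 6 rose and 1 fell, and the number that rose was 3 without saline arrays 1 or 2 or HDM arrays 1 or 3 and 8 without HDM array 4. Among those that rose were Tnfrsf9 (0.87 ± 0.17), Il2ra (0.80 ± 0.16), Cxcr6 (0.45 ± 0.10) and Ctla4 (0.45 ± 0.13), which mark activated or regulatory cells. Most of the list was chosen as such markers, so the kind of gene that rose was largely set by the list. Most of its activation and regulatory genes did not pass. The call of Ctla4 ended without saline arrays 1, 2 or 4 or HDM arrays 1, 2 or 3 and with a variance trend and robust estimation, with the replicate number as a block and with only the knockout arrays in the fit (adjusted p 0.0529 to 0.149). The general T cell gene Cd3e had 0.10 (adjusted p = 0.534) and Cd4 0.17 (adjusted p = 0.346), and Cd8a fell by 0.40 ± 0.09. Of 13 NK and cytotoxic genes none rose and Klrd1 fell by 0.55 ± 0.11, against 3.88% of all genes lower. Changes lay below 0 for 12 of the 13. The number that fell was 2 without saline array 1 and 3 without saline array 3 or HDM array 4. None of 16 B and plasma cell genes passed, although Mzb1 (0.81, adjusted p = 0.0765) and Derl3 (0.64, adjusted p = 0.0801) of plasma cells had large changes. Without HDM array 4, 3 were higher, and without saline array 2 or HDM array 1, 1 was lower. None of 14 interferon-stimulated genes passed, with or without that array. At an unadjusted p under 0.05 (limma) 4 B and plasma cell genes were higher and 1 lower, and 0 and 1 interferon-stimulated genes. Of 23 cell cycle genes 1 rose, Ccne1 (0.45 ± 0.12), against 4.96% of all genes higher. Its call ended without saline arrays 2 or 4 or HDM arrays 1, 2 or 3 (adjusted p 0.0520 to 0.0772). Without HDM array 4, 4 cell cycle genes rose. Mki67 had 0.39 (adjusted p = 0.364). Of 15 innate sensor genes 4 rose and 2 fell, and the number that rose was 2 without saline array 2 or HDM arrays 2 or 3 and the number that fell 1 without saline array 3 or HDM arrays 1 or 2. Ly96, the partner of Tlr4, rose by 0.49 ± 0.10 and Tlr13 by 0.91 ± 0.23, while Tlr2 fell by 0.44 ± 0.08 and Cd14 by 0.38 ± 0.09. The call of Tlr13 ended without saline array 2 or HDM arrays 1, 2 or 3 (adjusted p 0.0520 to 0.0575) and that of Cd14 without saline array 3 or HDM arrays 1 or 2 (adjusted p 0.0505 to 0.0628).

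Most neutrophil genes did not pass, and those that did went both ways. Cxcl5, an epithelial neutrophil attractant, read 9.16, 8.83, 8.85 and 8.75 after saline and 7.91, 7.39, 7.87 and 7.52 after HDM, a fall of 1.23 ± 0.12 (adjusted p = 9.09e-06) with no overlap. It was the only member of 12 genes for neutrophil attraction and type 17 cytokines that fell, Il17rb was the only one that rose, and Cxcl1 (-0.09, adjusted p = 0.567) and Il17a (-0.18, adjusted p = 0.184) did not pass. Among 13 neutrophil genes 4 fell and 2 rose. Ltf, lactoferrin, went from a saline range of 11.43 to 11.72 to an HDM range of 10.29 to 10.54 (-1.18 ± 0.15 (SE), adjusted p = 9.68e-05), Mmp8, a collagenase of neutrophils, fell by 1.03 ± 0.13, and S100a8 and S100a9 fell by 0.36 ± 0.09 and 0.36 ± 0.08. The call of S100a8 ended without saline arrays 1 or 2 or HDM arrays 1 or 3 and after quantile normalization (adjusted p 0.0588 to 0.0737). Retnlg, which belongs to the list, rose by 2.14, more than any member fell. Csf3r had -0.04 (adjusted p = 0.914) and Ly6g -0.11 (adjusted p = 0.393).

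In the airway epithelium, 4 of 16 mucous cell genes rose and 1 fell, while 7 of 11 club cell genes and 8 of 18 ciliated cell genes fell and none rose. Clca1, a secreted protein of goblet cells, read 10.38, 9.91, 9.61 and 9.41 after saline and 13.19, 13.31, 13.38 and 12.95 after HDM (3.38 ± 0.46 (SE), adjusted p = 0.000228), 10.4-fold. Muc5ac, the inducible airway mucin, read 9.54, 9.59, 9.48 and 9.56 after saline and 11.03, 10.75, 10.87 and 10.46 after HDM (1.23 ± 0.20 (SE), adjusted p = 0.00113), and Agr2, needed for mucin folding, rose by 0.84 ± 0.19 and Itln1 by 1.13 ± 0.14. Muc5b, the constitutive mucin, had -0.13 (adjusted p = 0.601) and Spdef, the goblet cell regulator, -0.02 (adjusted p = 0.836). Slc26a4, pendrin, an anion exchanger, read 9.69, 9.24, 9.72 and 9.36 after saline and 11.47, 11.47, 11.74 and 10.98 after HDM (1.91 ± 0.17 (SE), adjusted p = 2.81e-06), while Aqp5, a water channel, fell by 0.59 ± 0.11 and Scnn1a, a sodium channel subunit, by 0.32 ± 0.09. The call of Scnn1a ended without saline arrays 1, 2, 3 or 4 or HDM arrays 1, 2 or 3 and with equal array medians and with only the knockout arrays in the fit (adjusted p 0.0502 to 0.141).

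Club cell genes fell in 7 of 11 cases with none higher (median -0.35), against 3.88% of all genes lower. Scgb3a2 read 9.98, 10.21, 10.17 and 10.20 after saline and 8.92, 9.19, 8.75 and 9.51 after HDM, a fall of 1.05 ± 0.14 (adjusted p = 0.000167), and Cyp2f2 fell by 0.43 ± 0.08 and Scgb3a1 by 0.28 ± 0.08. The call of Scgb3a1 ended without saline arrays 1, 2 or 3 or HDM arrays 1, 2 or 3 (adjusted p 0.0503 to 0.0955). Scgb1a1, the most used club cell marker, had -0.36 (adjusted p = 0.368). Of 16 genes of xenobiotic metabolism, many of them club cell enzymes, 8 fell and 1 rose, with the lowest median of all lists (-0.39). Cyp2e1 fell from a saline range of 9.76 to 10.42 to an HDM range of 8.75 to 9.26 (-0.99 ± 0.16 (SE), adjusted p = 0.00082), the glutathione transferase Gsta3 by 0.93 ± 0.16 and Cyp4b1 by 0.58 ± 0.13, and Cyp1a1 rose by 0.49 ± 0.13, a call that ended without saline array 1 (adjusted p = 0.0891). All 18 ciliated cell genes had a change below 0, and 8 passed (median -0.31). Tppp3, a tubulin-binding protein, went from a saline range of 12.74 to 12.86 to an HDM range of 11.87 to 12.35 (-0.73 ± 0.10 (SE), adjusted p = 0.000157) and the dynein heavy chain Dnah5 fell by 0.40 ± 0.11, a call that ended without saline arrays 1, 3 or 4 or HDM arrays 1 or 3 (adjusted p 0.0523 to 0.0930). Foxj1, the regulator of these genes, had -0.18 (adjusted p = 0.137). For these lists too HDM array 4 was closest to saline. The mean shift over the club cell genes was -0.15 on array 4 and -0.47, -0.31 and -0.33 on arrays 1 to 3. The falls of club cell genes numbered 3 without HDM arrays 1 or 3 and 4 without saline arrays 1 or 2 or HDM array 2, and 7 without HDM array 4. Those of ciliated cell genes numbered 3 without HDM array 1, 4 without saline array 4 or HDM array 3 and 5 without saline arrays 1, 2 or 3, and 11 without HDM array 4. Those of xenobiotic genes numbered 6 to 11 with 1 knockout array left out at a time.

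In the alveoli, 8 of 14 genes of type 1 cells fell and none rose (median -0.32). The falls numbered 4 without saline arrays 2 or 4 or HDM arrays 1 or 3 and 5 without HDM array 2, and 9 without HDM array 4. Rtkn2 fell by 0.46 ± 0.09, Hopx by 0.38 ± 0.09 and Ager by 0.35 ± 0.09. The call of Ager ended without saline arrays 2 or 4 or HDM arrays 1, 2 or 3 (adjusted p 0.0599 to 0.0751). Of 13 type 2 cell genes 3 fell, Lyz1 from a saline range of 13.49 to 13.70 to an HDM range of 12.16 to 13.04 (-0.89 ± 0.15 (SE), adjusted p = 0.0011) and Lyz2 and Napsa by 0.22 each, while the surfactant protein genes Sftpc (-0.25, adjusted p = 0.0879), Sftpb (-0.15, adjusted p = 0.203) and Sftpd (-0.01, adjusted p = 0.963) did not pass. The call of Lyz2 ended without saline arrays 1, 2, 3 or 4 or HDM arrays 1, 2 or 3 and after quantile normalization (adjusted p 0.0617 to 0.0958) and that of Napsa without saline arrays 2, 3 or 4 or HDM arrays 1, 2, 3 or 4 and with the replicate number as a block (adjusted p 0.0562 to 0.0989). The falls of type 2 cell genes numbered 1 without saline arrays 2, 3 or 4 or HDM arrays 1, 2 or 3 and 5 without HDM array 4. Of 17 endothelial genes 3 fell, 8 without HDM array 4, and Vwf rose by 0.48 ± 0.09. Glycam1, a sulphated ligand of high endothelial venules, had the largest fall of all and read 10.55, 9.79, 9.90 and 10.70 after saline and 8.31, 8.19, 8.52 and 8.40 after HDM (-1.88 ± 0.26 (SE), adjusted p = 0.000235). Tmem100 of alveolar capillaries fell by 0.66 ± 0.11, and Pecam1, shared by all endothelium, had -0.09 (adjusted p = 0.407).

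Of 11 smooth muscle genes 4 rose, Myh11 by 0.54 ± 0.10, Actg2 by 0.51 ± 0.11, Acta2 by 0.43 ± 0.08 and Myocd by 0.36 ± 0.08, and here HDM array 4 was the highest or next to it. Tagln (0.01, adjusted p = 0.973) and Cnn1 (0.16, adjusted p = 0.475) did not pass. Of 26 matrix genes 11 rose and 2 fell. Tnc, tenascin C, an adhesion-modulating glycoprotein of remodelled tissue, read 9.53, 9.20, 9.86 and 9.31 after saline and 10.29, 10.10, 10.54 and 10.35 after HDM (0.85 ± 0.13 (SE), adjusted p = 0.000462). Thbs1 rose by 0.71 ± 0.09, Fn1 by 0.54 ± 0.08, Eln, elastin, by 0.44 ± 0.10, Col3a1 by 0.33 ± 0.06 and Col1a1 by 0.27 ± 0.06. Inhba, the activin A subunit, changed by 1.20 ± 0.33 (adjusted p = 0.029), a call that ended without saline arrays 1, 2, 3 or 4 or HDM arrays 1, 2 or 3 and with a variance trend and robust estimation (adjusted p 0.0554 to 0.0982). Col12a1 (-0.85 ± 0.12) and the proteoglycan Dcn (-0.51 ± 0.08) fell, and Postn had -0.09 (adjusted p = 0.566).

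Among the 15 largest falls, Glycam1 was followed by Clca3b, a relative of Clca1, which read 10.66, 11.19, 10.73 and 11.42 after saline and 9.29, 9.22, 9.09 and 8.91 after HDM, a fall of 1.87 ± 0.21 (adjusted p = 2.84e-05). Dmbt1, a scavenger receptor secreted at mucosal surfaces, read 9.47, 9.51, 10.42 and 10.13 after saline and 8.01, 7.97, 8.12 and 8.09 after HDM (-1.83 ± 0.29 (SE), adjusted p = 0.000899), with saline arrays 3 and 4 above 1 and 2. Prss30, an epithelial serine protease, read 10.30, 10.34, 9.58 and 10.62 after saline and 8.53, 8.36, 8.27 and 8.43 after HDM (-1.81 ± 0.18 (SE), adjusted p = 9.09e-06). None of these groups overlapped, and the HDM arrays were tighter than the saline arrays for Dmbt1 and Prss30. Gp2 fell by 1.36 ± 0.23, the acute phase protein Orm2 by 1.54 ± 0.29, and Pon1, an esterase carried on lipoproteins, by 1.54 ± 0.25. The other falls in this set were those of Sptssb, a subunit of the enzyme that starts sphingolipid synthesis (-1.46), Tmem45b (-1.41), Vstm2a (-1.41), A2ml1, a protease inhibitor (-1.37), the sulphotransferase Sult1d1 (-1.35) and the lipase Lipf (-1.27).

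**Figure D4:**
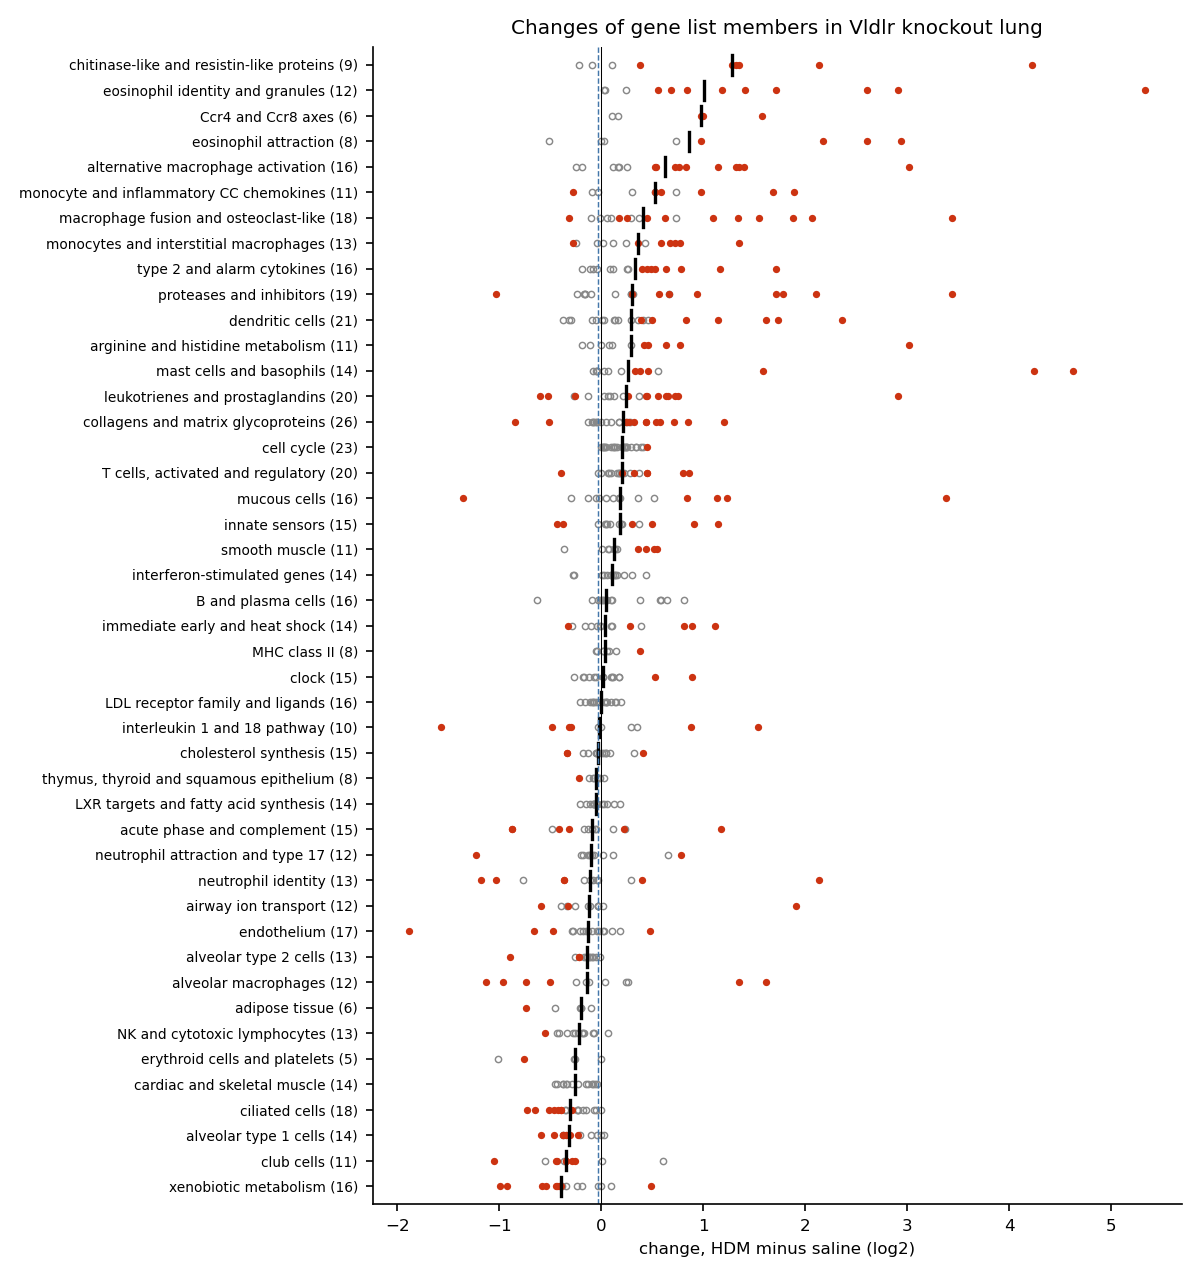
Changes (log2, HDM minus saline) of the measured members of 45 gene lists in Vldlr knockout lung, with the number measured in brackets. Filled red points passed at an adjusted p under 0.05, open points did not, black bars are list medians and the dashed line is the median of all 19938 genes (-0.03). Medians run from -0.39 for xenobiotic metabolism to 1.28 for chitinase-like and resistin-like proteins.

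None of 16 genes of the LDL receptor family and its ligands passed, among them Lrp1 (0.20, adjusted p = 0.0515), Lrp8 (0.04, adjusted p = 0.73) and Apoe (0.02, adjusted p = 0.897), and none of 14 LXR target and fatty acid synthesis genes did. Without saline array 4, and with equal array medians, a variance trend, array weights, the replicate number as a block or a filter on dim genes, 1 of the first list was higher, and without HDM array 4, 1 of the second was higher and 2 lower. At an unadjusted p under 0.05 (limma) 1 of the first list was higher and 0 lower, and 1 and 1 of the second. Of 15 cholesterol synthesis genes Dhcr7 rose (0.41 ± 0.11), and Insig1, a brake on the pathway (-0.34 ± 0.07), and Fdft1, the squalene synthase (-0.34 ± 0.08), fell. Over all genes 4.96% were higher and 3.88% lower, so single calls in lists of this size, here and below, say little about a list. Dhcr7 lost its call without saline arrays 1, 2, 3 or 4 or HDM arrays 1, 2 or 3 (adjusted p 0.0504 to 0.0999). Of 15 acute phase and complement genes 2 rose and 4 fell, and the number that rose was 0 without saline arrays 1, 2 or 4 or HDM array 3 and 1 without saline array 3 or HDM arrays 1 or 2. Saa3 read 9.45, 9.14, 9.57 and 9.65 after saline and 9.90, 11.09, 11.63 and 9.91 after HDM, high on arrays 2 and 3 (1.18 ± 0.35 (SE), adjusted p = 0.0435). Its call ended without saline arrays 1, 2, 3 or 4 or HDM arrays 2 or 3 and with a variance trend and robust estimation (adjusted p 0.0680 to 0.153). The complement factor Cfb fell by 0.88 ± 0.15 and haptoglobin, Hp, by 0.87 ± 0.13. Of 15 clock genes Bhlhe40 (0.89 ± 0.13) and Bhlhe41 (0.53 ± 0.16) rose, the second with a call that ended without saline arrays 1, 2 or 4 or HDM arrays 1 or 2 and with a variance trend and robust estimation and with the replicate number as a block (adjusted p 0.0664 to 0.138), while Dbp (0.10, adjusted p = 0.703) and Nr1d1 (-0.17, adjusted p = 0.515) did not pass. Of 14 immediate early and heat shock genes 4 rose, Atf3 the most (1.12 ± 0.22), and Nr4a1 fell by 0.32 ± 0.10, a call that ended without saline arrays 1, 2, 3 or 4 or HDM arrays 1, 2 or 3 and with equal array medians (adjusted p 0.0510 to 0.145).

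Markers of tissue next to the lung were read to check the dissections. All 14 heart and skeletal muscle genes had changes below 0 and none passed, with a mean level of 9.52 to 9.79 on the saline arrays and 9.26 to 9.66 on the HDM arrays. At an unadjusted p under 0.05 (limma) 9 were lower, and 2 without saline array 3 and 5 without HDM array 4 passed as lower. All 6 adipose genes also had changes below 0, 3 of them at an unadjusted p under 0.05 (limma). Cidec, which is also in the alveolar macrophage list, passed as lower (2 genes without saline array 3). Of 8 genes of thymus, thyroid and squamous epithelium Krt14 fell by 0.22 ± 0.05. Its call ended without saline array 2 or HDM array 1 (adjusted p 0.0515 to 0.0658). All 5 erythroid and platelet genes had changes below 0, 3 of them at an unadjusted p under 0.05 (limma), and Alas2 passed with a fall of 0.76 ± 0.22. The call of Alas2 ended without saline arrays 1, 2, 3 or 4 or HDM arrays 1, 2 or 3 and with a variance trend and robust estimation (adjusted p 0.0562 to 0.133). The part of such tissue in the falls above was not tested. Of the lung's own markers, the mean level of the type 2 cell genes was 12.81 to 12.87 on the saline arrays. It was 12.63, 12.59 and 12.62 on HDM arrays 1 to 3, below every saline array. HDM array 4, at 12.80, was hardly below saline array 1 at 12.81.

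Wild-type lung was taken to ask which of these changes differed between genotypes. No strain was given for the knockout arrays, so loss of Vldlr and strain background cannot be told apart in any such difference. The same comparison in wild type called 1568 genes higher (7.86%) and 1937 lower (9.72%). Its arrays enter the knockout comparison only through the pooled spread. It called 1057 in all without wild-type saline arrays 2 and 3, and leaving out single arrays 1 at a time took its total of 3505 as low as 1960, without HDM array 4. 424 genes were higher in both, 42.9% of the knockout list and 27.0% of the wild-type list, and 216 were lower in both, 27.9% and 11.2%. The changes of the 19938 genes correlated between genotypes with r = 0.505 (Spearman 0.408), as a description across genes. With all arrays, fewer genes were called in the knockout, but 97 genes rose at least 2-fold there and 45 in wild type, of which 30 were the same genes. The wild-type rises are measured from saline arrays 2 and 3 too, which lay 0.33 and 0.18 above the knockout saline mean for the 97 genes. Without those arrays wild type called 1057 genes, and the knockout with all arrays called 1763. These counts do not compare the sizes of the 2 responses, as only wild-type saline arrays 1 and 4 were left. Fewer arrays by themselves lower a count, and the knockout count was 1034 without HDM array 3 alone. The 2-fold counts are for all arrays. All 15 of the largest knockout rises were larger than in wild type, where 14 had the same sign and 7 passed. The selection of the 15 by their size in the knockout fixes part of that.

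**Figure D5:**
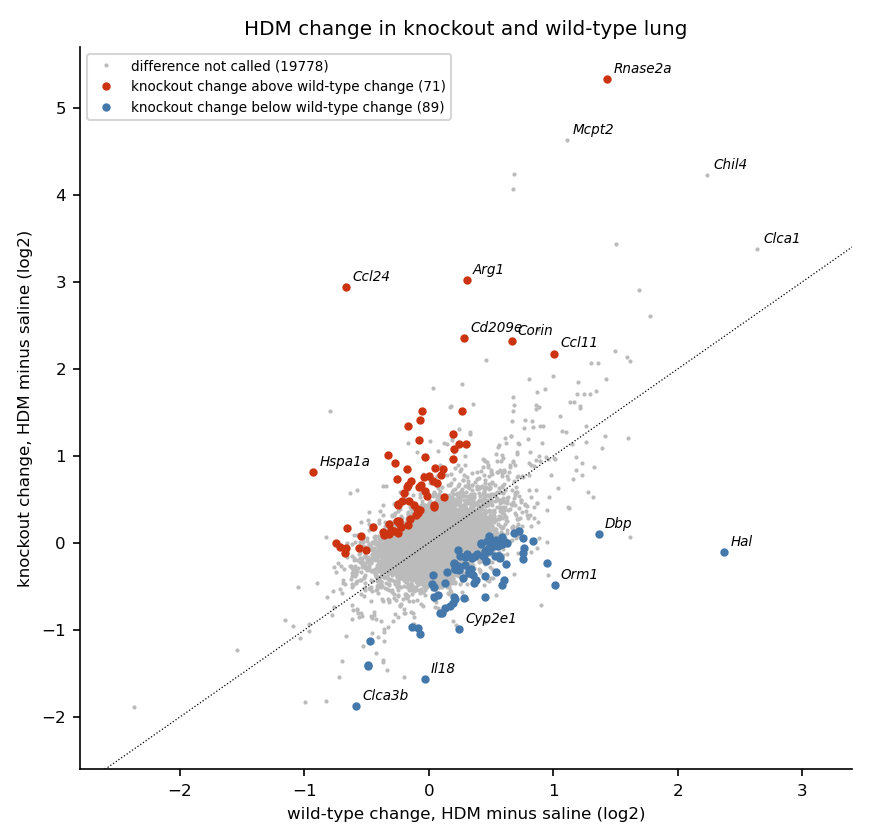
Change between HDM and saline (log2) in wild-type lung on the x axis and in Vldlr knockout lung on the y axis, 1 point per gene, with the line of equal change dotted. Coloured genes passed the test of the difference, 71 above and 89 below. Ccl24 at 2.94 in the knockout and -0.66 in wild type lies far above the line, and Hal at -0.11 and 2.37 far below.

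The difference itself, the knockout change minus the wild-type change, passed for 160 genes, 71 with a higher value in the knockout (0.356%) and 89 with a lower one (0.446%). Rnase2a had the largest, 3.90 ± 0.70 (SE, adjusted p = 0.0182). On the wild-type arrays it read 8.54, 11.47, 11.22 and 9.68 after saline and 11.40, 11.27, 12.42 and 11.54 after HDM, so the saline arrays spread widely and reached the HDM arrays. Ccl24 differed by 3.61 ± 0.58 (adjusted p = 0.01). It read 7.95, 9.06, 9.26 and 8.03 on wild-type saline arrays and 7.80, 7.88, 8.21 and 7.76 on wild-type HDM arrays, so saline arrays 2 and 3 lay above every wild-type HDM array, and all of them lay below the lowest knockout HDM array at 9.30. Arg1 differed by 2.71 ± 0.54 (adjusted p = 0.0289), Cd209e by 2.07 ± 0.28 (adjusted p = 0.00371), Corin by 1.66 ± 0.34 and Ccl11 by 1.17 ± 0.26 (adjusted p = 0.0488). The receptor Tarm1 (1.57 ± 0.27), Ocstamp (1.51 ± 0.24), Ear6 (1.48 ± 0.29), G530011O06Rik (1.34 ± 0.21) and Rnase2b (1.26 ± 0.22) followed. Hspa1a, an inducible chaperone, rose in the knockout (0.81) and fell in wild type (-0.93), a difference of 1.74 ± 0.26. Of the 26 matrix genes 6 also had a higher value in the knockout and 1 a lower one, Dcn (-0.56 ± 0.12). The 6 differed by 0.42 to 1.02, Tnc by 1.02 ± 0.18, Thbs1 by 0.68 ± 0.13 and Eln by 0.69 ± 0.14 among them.

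On the other side, Hal, the histidine ammonia-lyase, rose in wild type by 2.37 ± 0.29 and had -0.11 (adjusted p = 0.863) in the knockout, a difference of -2.48 ± 0.42 (adjusted p = 0.0126). It read 8.02, 8.12, 7.84 and 7.94 on the knockout HDM arrays and 10.78, 10.55, 11.79 and 11.09 on the wild-type HDM arrays, which were far apart. Il18, which fell in the knockout, had -0.03 (adjusted p = 0.922) in wild type, a difference of -1.54 ± 0.30 (adjusted p = 0.0289). Dbp, an output gene of the clock, rose in wild type (1.37) and had 0.10 in the knockout (-1.27 ± 0.19, adjusted p = 0.00744). The acute phase gene Orm1 (-1.49 ± 0.29), Clca3b (-1.29 ± 0.29), Cyp2e1 (-1.23 ± 0.22), AB010352 (-1.17 ± 0.24), Klhl38 (-1.07 ± 0.15), the cilium gene Sntn (-1.07 ± 0.22) and Fam107a (-1.03 ± 0.16) also had a lower value in the knockout, which was a deeper fall for Clca3b and a fall against a rise for Klhl38 and Fam107a. The call of the knockout fall of Fam107a ended without saline arrays 1, 2 or 4 or HDM arrays 1, 2 or 3 (adjusted p 0.0562 to 0.0851). Chil4, Mcpt1, Mcpt2, Clca1 and Mmp12 had no difference that passed (adjusted p = 0.113, 0.0588, 0.0583, 0.624 and 0.106), and their differences of 1.99, 3.55, 3.52, 0.74 and 1.93 were not small.

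The test of the difference depended on single arrays of all 4 groups. It passed for 41 to 86 genes without wild-type saline array 2, 3 or 4 or knockout saline array 2, 3 or 4, without knockout HDM array 1, 2 or 3 or without wild-type HDM array 2 or 4. It passed for 103 and 115 without saline array 1 of the knockout and of wild type, for 300 and 325 without wild-type HDM array 1 and 3, and for 1019 without knockout HDM array 4. Of the 41 differences that passed among the genes named here, 17 held without any 1 of the 16 arrays, those of Rnase2a, Ccl24, Cd209e, Tarm1, Ocstamp, Rnase2b, G530011O06Rik, Hspa1a, Tnc, Hal, Dbp, Cyp2e1, Klhl38 and Fam107a among them. The differences of Dcn (13 of 16 arrays), Ccl11 (12), Clca3b, Sntn and AB010352 (11 each), Corin and Il18 (10 each), Eln (9), Arg1 and Ear6 (8 each), Orm1 (7) and Thbs1 (5) ended when 1 of that many arrays was left out. With a variance trend and robust estimation Rnase2a, Arg1, Ccl11, Corin, Il18, Ear6, Clca3b and AB010352 did not pass, and Ccl11 did not after quantile normalization.

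Wild-type saline arrays 2 and 3 stood apart from the other wild-type saline arrays for genes such as Rnase2a and Ccl24. Over all genes their array weights were not lower than those of the others. Without arrays 2 and 3, a choice made after the data were seen, 12 genes passed in place of 160. All 160 kept their sign. Only wild-type saline arrays 1 and 4 were left in that group, and fewer arrays by themselves lower such a count. It was 41 without wild-type saline array 3 alone. How much of the drop to 12 came from fewer arrays was not tested. Among the genes named for their difference, Cd209e (1.75, adjusted p = 0.0313), Hal (-3.15, adjusted p = 0.000728), Hspa1a, Klhl38, Fam107a and G530011O06Rik were in those 12. Rnase2a then differed by 2.79 (adjusted p = 0.0817), Ccl24 by 3.02 (adjusted p = 0.0879) and Arg1 by 2.13 (adjusted p = 0.162).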

How the data were processed

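Whole-lung RNA of 16 samples was measured on Affymetrix arrays. The deposited values are log2 intensities, and the submitters' processing notes name RMA and Affymetrix Expression Console, with no versions given. No further normalization was applied. Of 35556 probe sets, 21789 had 1 gene symbol in the platform annotation, 1621 had several and 12146 were not named here. The brightest probe set by mean over all arrays stood for each of 19938 genes, of which 999 had several.

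A model with 4 group means (12 residual degrees of freedom) was fitted with limma 3.58.1 in R 4.3.3, and p-values were two-sided and adjusted over all genes by Benjamini-Hochberg, called under 0.05. The fit was run on simulated normal values. These had a single spread per gene and no shifts of whole arrays, so the run does not cover arrays that stand apart. The number of arrays limits the precision. The genes and 45 lists were chosen with earlier results of these data known, so no list is independent evidence of its direction. Named are the 15 largest rises and 15 largest falls with non-overlapping groups, without predicted genes, small RNAs and receptor segments, the 10 largest differences between genotypes each way, and list members picked after their values were seen. Samples sharing a replicate number did not deviate together over genes (correlations of -0.153 to 0.142 in the knockout and -0.276 to 0.093 in wild type). The numbers were therefore not used as pairs, although array medians followed them in part. Alternatives changed the normalization, the filter on dim genes, the variance model, array weights, the probe set rule, the block, the threshold and the arrays included. Promoter sequences are those of RefSeq, GRCm38.p6.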

Additional observations from a re-analysis of the deposited data

Results flagged for a closer look

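The knockout groups of 4 were examined for 1 array far from the other 3, by the gap to its nearest neighbour over the range of the group, for the 239 genes named. Of 478 groups 23 (4.8%) had such an array, and chance gives about 1 in 20. On knockout HDM array 2 the level was the highest of its group for Mcpt4 (8.79, nearest array 7.77). On knockout HDM array 3 the level was the highest of its group for Cd4 (10.24, nearest array 9.88) and Thbs1 (12.72, nearest array 12.38). On knockout HDM array 4 the level was the highest of its group for Hopx (11.79, nearest array 11.52), Klhl38 (9.95, nearest array 9.52) and Nr1d1 (12.20, nearest array 11.63). On knockout HDM array 4 the level was the lowest of its group for Ccl3 (10.24, nearest array 11.37), Clec7a (10.76, nearest array 11.51), Mzb1 (11.00, nearest array 11.84), Ptgir (9.09, nearest array 9.27), Slc7a11 (10.36, nearest array 11.20), Tlr13 (10.28, nearest array 10.82) and Tm4sf19 (11.75, nearest array 12.86). On knockout saline array 1 the level was the lowest of its group for Chia1 (12.09, nearest array 12.38) and Napsa (12.05, nearest array 12.15). On knockout saline array 2 the level was the lowest of its group for Gapt (8.82, nearest array 9.04) and Srm (10.45, nearest array 10.59). On knockout saline array 3 the level was the highest of its group for Ctsk (11.06, nearest array 10.66) and F10 (9.54, nearest array 9.31). On knockout saline array 3 the level was the lowest of its group for A2ml1 (9.99, nearest array 10.24). On knockout saline array 4 the level was the highest of its group for Cyp2e1 (10.42, nearest array 9.86) and Hp (12.48, nearest array 12.25). On knockout saline array 4 the level was the lowest of its group for Chil3 (11.39, nearest array 11.69).

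The change in the knockout differed from that in wild type by the test of the difference (limma, adjusted p under 0.05) for 41 of the genes named. The knockout change minus the wild-type change was above 0 for Arg1 (2.71), Ccl11 (1.17), Ccl24 (3.61), Ccr8 (1.02), Cd209e (2.07), Cebpe (0.62), Col1a1 (0.42), Col3a1 (0.43), Corin (1.66), Ear6 (1.48), Eln (0.69), G530011O06Rik (1.34), Hspa1a (1.74), Il17rb (0.68), Itln1 (0.89), Meg3 (0.88), Nos2 (0.81), Ocstamp (1.51), Olfr110 (0.84), Rnase2a (3.90), Rnase2b (1.26), Tarm1 (1.57), Thbs1 (0.68) and Tnc (1.02). It was below 0 for AB010352 (-1.17), Clca3b (-1.29), Cyp2e1 (-1.23), Dbp (-1.27), Dcn (-0.56), Fam107a (-1.03), Hal (-2.48), Il18 (-1.54), Klhl38 (-1.07), Krt79 (-0.83), Ms4a4d (-0.92), Orm1 (-1.49), Scgb3a2 (-0.98), Sftpd (-0.59), Sntn (-1.07), Tmem45b (-0.92) and Vstm2a (-0.92). The changes had opposite signs and sizes of at least 0.4 in both genotypes for Ccl24 (2.94 in the knockout, -0.66 in wild type), Fam107a (-0.42 in the knockout, 0.61 in wild type), Hspa1a (0.81 in the knockout, -0.93 in wild type), Klhl38 (-0.62 in the knockout, 0.45 in wild type), Orm1 (-0.48 in the knockout, 1.01 in wild type) and Sntn (-0.48 in the knockout, 0.59 in wild type). Without wild-type saline arrays 2 and 3, 6 of these 41 differences still passed and 35 no longer did, all with the same sign. Fewer arrays by themselves also end calls.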

How the results depend on the processing

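None of the 183 knockout calls and 41 differences examined among the named genes turned its direction under the alternatives run, while 34 and 24 of them ended without some single array (up to 26 and 24 at once) and 15 and 10 under another alternative. Leaving out 1 array at a time gave 1034 to 2673 genes for the knockout change (580 to 1458 higher, 424 to 1215 lower), 1960 to 3611 in wild type (1002 to 1619 higher, 938 to 1992 lower), and 41 to 1019 for the difference (26 to 512 higher, 15 to 507 lower). Array weights gave 2938 for the knockout change (1583 higher, 1355 lower) and 680 for the difference (339 and 341). A 2-fold threshold left 121 (97 and 24) for the knockout, 51 (45 and 6) for wild type and 27 (17 and 10) for the difference. Without wild-type saline arrays 2 and 3, chosen after seeing the data, wild type had 1057 (646 and 411) and the difference 12 (8 and 4). This left only arrays 1 and 4 in that group, and fewer arrays by themselves lower such counts. A filter at the median level took wild type to 2289 genes (889 lower), with fewer genes tested. Apart from the filters and the omission of arrays the cause was not tested. Replicate numbers as a block gave 1841 genes for the knockout change and 258 for the difference (104 higher, 154 lower). Deviations over genes did not pair the samples by number, but array medians followed the number in part. Replicate 4 had the lowest median over probe sets in each group. It was 8.783 and 8.799 in knockout saline and HDM, and 8.798 and 8.795 in wild-type saline and HDM. What the numbers stand for was not tested. Of the knockout calls, 56.1% were higher, and 50.1% after quantile normalization and 60.5% with equal array medians, where counts were 1953 and 1802. For low-signal genes no detection call was available here.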

Other observations

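Several genes outside the lists also changed by more than 2-fold in the knockout, and are named here after their values were seen. Rbp4, the retinol carrier, rose by 1.82 ± 0.34 (adjusted p = 0.00269), Slc7a8, an amino acid transporter, by 1.71 ± 0.27, Fbp1, an enzyme of gluconeogenesis, by 1.61 ± 0.19, and Gatm, which uses arginine to make the precursor of creatine, by 1.59 ± 0.21. Slc7a11, the cystine transporter, read 9.67, 9.03, 9.83 and 9.64 after saline and 11.30, 11.20, 11.35 and 10.36 after HDM (1.51 ± 0.39 (SE), adjusted p = 0.0219) and had -0.80 (adjusted p = 0.154) in wild type. Its knockout call ended without saline array 2 or HDM arrays 1, 2 or 3 and with a variance trend and robust estimation (adjusted p 0.0596 to 0.0804). The coagulation factors F5 (1.46 ± 0.13) and F10 (1.25 ± 0.18) rose, as did Ch25h, which makes 25-hydroxycholesterol (1.40 ± 0.22). Meg3, a maternally expressed long RNA, rose by 1.07 ± 0.10 and differed between genotypes by 0.88 ± 0.14 (adjusted p = 0.01).

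Some gene families, chosen after their values were seen, held members that rose and members that fell. Of 7 measured Clca genes Clca1 rose and Clca3b fell, and the other members lay between -0.38 and 0.07. Of 7 Cd209 genes Cd209d and Cd209e rose and Cd209f fell by 0.84 ± 0.17 (adjusted p = 0.00469). Of 19 Ms4a genes, membrane proteins of immune cells, 3 rose, Ms4a7 (1.35), Ms4a6d (1.19) and Ms4a4a (0.99), and 3 fell, Ms4a4d (-0.81), Ms4a4b (-0.61) and Ms4a6b (-0.45), whose call ended without saline arrays 3 or 4 or HDM arrays 1, 3 or 4 and with array weights and with only the knockout arrays in the fit (adjusted p 0.0570 to 0.109). In others all calls went one way, as for 4 of 7 measured chitinase genes that rose. H2-M2 (2.07 ± 0.27) rose together with the olfactory receptor genes Olfr111 (1.77 ± 0.15) and Olfr110 (1.13 ± 0.13). How far their probe sets share signal was not tested.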
